A study of Arabidopsis thaliana with 40 samples.

Results

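The heat shock genes of *Arabidopsis thaliana* were examined in CEL-Seq profiles of sorted root cells. The members were 38 of the 32678 *Arabidopsis* loci of the expression table, taken by their locus identifiers from 6 families: 7 HSP90 genes, 5 cytosolic HSP70 genes, 3 BiP genes, 12 small heat shock protein genes, HSP101 and 10 heat shock factor (HSF) genes. All 38 loci were found. The comparison of interest within them was between 23 members known as induced by heat or other stress and 14 members known as constitutive, and the heat shock factor HSFA4A was left in neither class. The classes came from general knowledge of the genes and were not measured here.

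All samples came from 1 group. Plants of the Col-0 background carried the reporter WOX5:GFP, in which the WOX5 promoter drives GFP in the quiescent center (QC), whose cells seldom divide and lie amid the root stem cells. Roots were harvested 5 days after stratification, their cell walls were digested with enzymes, and GFP-positive cells were sorted and processed by CEL-Seq, which reads the 3′ end of poly(A) RNA after amplification by in vitro transcription. Of 40 samples labelled as single QC cells, 39 were matched to a column of the table, and QC cell 14 was not analysed here. No heat-treated roots and no undigested roots were among the samples, so an effect of digestion and sorting on these genes cannot be told apart from their level in the intact root.

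The total count over *Arabidopsis* loci ranged from 57655 in QC cell 4 to 7431708 in QC cell 22, with a median of 2096738. When the 39 profiles were ordered by total, 0 values were lower in a deeper profile over 38 steps, so each profile contained the counts of every shallower one. The profiles were therefore counted as 1 sample, no test was made across them, and levels are given for the deepest profile, that of QC cell 22, as CPM, that is, counts scaled to a profile total of 1000000. Intervals in brackets are exact 95% intervals that cover counting error only. Of 5 QC markers, 3 were detected (WOX5 at 10.6 CPM, SCR at 28.5 CPM and AGL42 at 2.96 CPM, summing to 42.1 CPM), of which SCR also marks the endodermis, while PLT1 and PLT2 were listed at 0. Of 9 markers of other root cell types, 6 were detected with a sum of 71.9 CPM, led by the stele marker WOL at 33.5 CPM, and CASP1, COBL9 and SMB were listed at 0. The GFP row was at 0, and ribosomal RNA loci held 13.9% of the counts. The part of these features in the levels below was not tested.

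Heat shock proteins are molecular chaperones that bind unfolded proteins. HSP70 and HSP90 act in ATP-driven cycles and serve growing cells as well as stressed ones, small heat shock proteins hold unfolding proteins in a state from which they can be refolded, and HSP101 pulls proteins out of aggregates. Many plant genomes keep constitutive copies beside copies that are switched on by heat shock factors, which bind DNA as trimers at heat shock elements made of inverted repeats of the unit GAA.

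Matches to the heat shock element were searched in the 500 genomic bases before each coding start of the RefSeq annotation (TAIR10.1, where the submitters' notes name TAIR10), which can include the 5′ untranslated region. The motif of 2 units was GAANNTTC, which is its own reverse complement, and the motif of 3 units was GAANNTTCNNGAA, searched on both strands. Every match of 3 units also holds a match of 2. Below, 8 matches of 3 units are shown, from members of both classes with levels that range from the lowest of all 38 to the highest. Each stretch of 30 bases runs 5′ to 3′ on the strand of its gene, and capitals mark the match.
HSP90.1, chr5:21352253-21352282, plus strand: aaacgaaaaGAACTTTCTGGAAttcgtttg
AT3G12580, chr3:3993846-3993875, minus strand: tttactcgtGAACGTTCTCGAAagctcttt
HSP17.4, chr3:16984946-16984975, minus strand: atcaacataGAAGCTTCTTGAAgccacctg
AT1G53540, chr1:19980237-19980266, plus strand: tcaacaccaGAAACTTCTTGAAagcacctg
HSP18.2, chr5:24062387-24062416, plus strand: tcaacaaacGAAACTTCCTGAAatgccaag
HSFA7A, chr3:19264940-19264969, plus strand: attacgaagTTCCAGAAGTTTCgactattc
HSC70-1, chr5:556554-556583, minus strand: acaaccatcGAACATTCTCGAAacatttta
AT3G09440, chr3:2905765-2905794, minus strand: cgagccatcGAACCTTCTCGAAactcgagt

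The first 6 are stress-induced members and the last 2 are constitutive. The match of HSFA7A lies in the other direction, so its capitals read as the reverse complement. Between the match and the coding start lay 282 bases in HSP90.1, 251 in AT1G53540, 223 in HSP18.2 and 227 in HSC70-1.

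All 38 members were detected, that is, had a count above 0, in the deepest profile, where 51.3% of all loci did. In every one of the 39 profiles, 30 of the 38 members were above 0, against 15.3% of all loci. At 100 CPM or more stood 23 members, against 5.41% of all loci, and at 1000 CPM or more stood 11, against 0.291%. The 11 were HSP90.1, HSP90.2, HSP90.3, HSP90.4, AT3G09440, AT3G12580, HSP17.6II, HSP17.4, AT2G29500, AT1G07400 and AT1G53540. Together the members summed to 23664 CPM (23553 to 23775), or 2.37% of the counts. Their median was 154 CPM, while the median of the 16780 detected loci was 12.1 CPM. Per kb of transcript the median of the members was 85.9 CPM and that of the detected loci 6.93 CPM. CEL-Seq reads the 3′ end, so counts need not rise with transcript length. Levels per kb, here and below, can therefore favour short transcripts. Small heat shock proteins held the largest sum of the 6 families, 9824 CPM, followed by HSP90 at 7221 CPM, HSP70 at 4883 CPM, the heat shock factors at 1076 CPM, HSP101 at 372 CPM and BiP at 288 CPM.

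**Figure D1:**
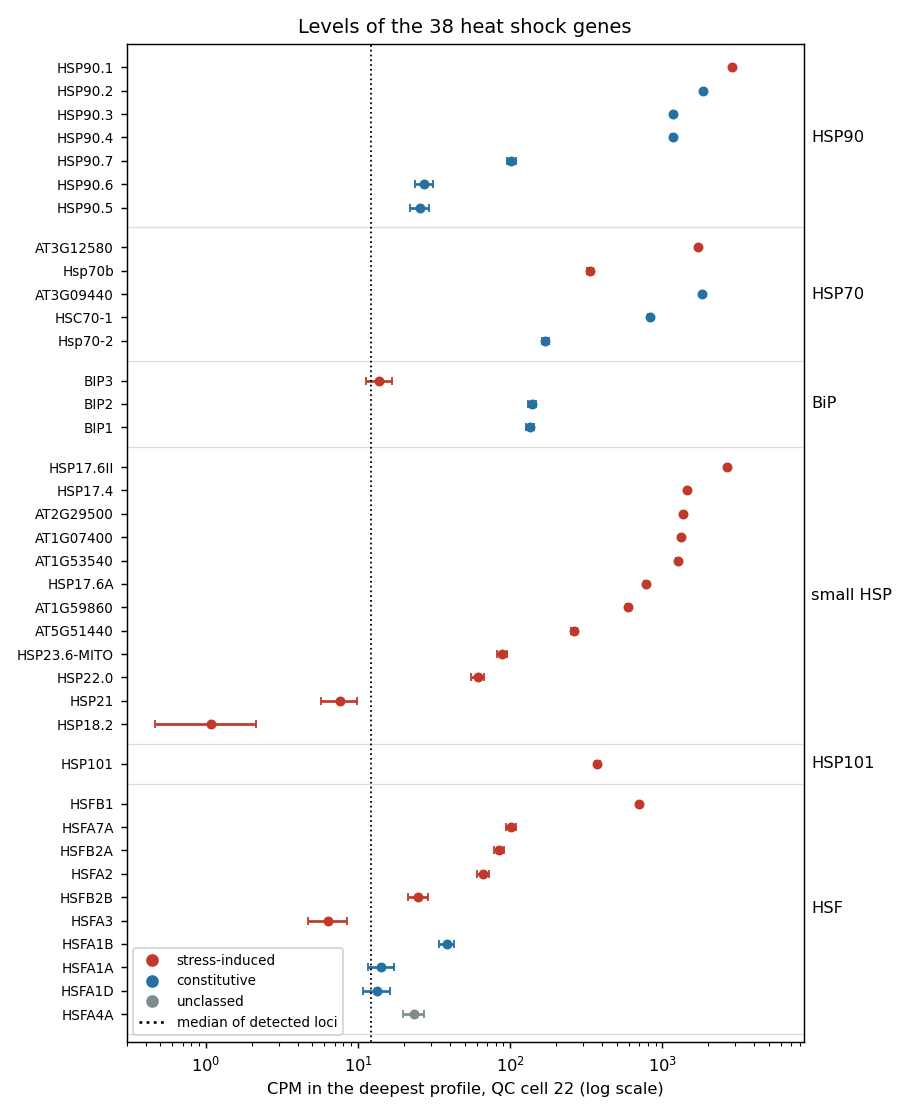
CPM of each of the 38 members in the deepest profile on a log axis, grouped by family, with stress-induced members above constitutive ones and bars for the exact 95% Poisson interval. Levels run from 1.08 CPM for HSP18.2 to 2865 CPM for HSP90.1, and the dotted line is the median of the detected loci, 12.1 CPM.

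HSP90 completes the folding of kinases, receptors and other clients. The copy known as heat-induced, HSP90.1 (AT5G52640), had the highest level of all members, 2865 CPM (2827 to 2904), and ranked 18th among all loci. Over the 39 nested profiles its level had a lowest value of 2863 CPM, a median of 2906 CPM and a highest value of 3452 CPM, the last in the shallowest profile. The constitutive cytosolic copies followed with 1855 CPM for HSP90.2 (AT5G56030), 1181 CPM for HSP90.3 (AT5G56010) and 1166 CPM for HSP90.4 (AT5G56000). The count of HSP90.1 was thus 1.54 times (1.51 to 1.58) that of HSP90.2, the next copy. Per kb of transcript the order was unchanged at its head, with 1362 CPM for HSP90.1 and 665 CPM for HSP90.2. HSP90.1 took 40.5% (40.1 to 41.0) of the counts of the 4 cytosolic genes, and its share of the counts added at single steps between profiles ran from 32.5% to 48.5%. The RefSeq transcript of HSP90.1 holds coding sequence alone, so its level per kb rests on a short model.

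The split among the 3 constitutive cytosolic copies is uncertain. HSP90.4 had 8666 counts and HSP90.3 had 8776 counts, a ratio of HSP90.4 to HSP90.3 of 0.987 (0.958 to 1.02), an interval that takes the reads of both as separate. Over the 38 steps their split varied less than separate reads would make it, with a chi-square per degree of freedom of 0.533, and the same value was 0.444 for HSP90.2 and HSP90.3, 0.727 for HSP90.1 and HSP90.2 and 1.19 for HSC70-1 and Hsp70-2. The order of HSP90.4 and HSP90.3 is therefore not settled, and the share of HSP90.1, which rests on the sum of all 4 genes, carries the same doubt. The transcripts of HSP90.4 and HSP90.3 were 86.6% identical and shared an unbroken run of 185 bases, and HSP90.2 and HSP90.3 shared one of 238 bases, so that reads there could fall on more than 1 copy. In the last 300 bases, where CEL-Seq reads are expected, the 3 copies were between 38.3% and 56.7% identical and shared no run over 30 bases. HSP90.1 shared no run over 29 bases with any of them along the whole transcript. For comparison, the ribosomal RNA loci AT2G01010 and AT3G41768 gained 406528 and 406614 counts over the 38 steps. The ribosomal RNA loci AT2G01020 and AT3G41979 stood at 14233.1 and 14232.9 CPM in the deepest profile. Whether reads shared between copies were counted in full for each was not tested.

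The organelle HSP90 genes, all constitutive, were far lower. HSP90.7 (AT4G24190), the HSP90 of the endoplasmic reticulum (ER), had 102 CPM, HSP90.6 (AT3G07770), the mitochondrial form, had 27.2 CPM, and HSP90.5 (AT2G04030), the plastid form, had 25.3 CPM. The interval of HSP90.5 (21.8 to 29.2 CPM) held the level of HSP90.6, so the last 2 did not differ beyond counting error. HSP90.5 was above 0 in 38 of the 39 profiles and the other HSP90 genes in all 39.

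HSP70 binds short hydrophobic stretches of unfolded chains. In this family a stress-induced and a constitutive member stood close together at the top: AT3G12580, which RefSeq names heat shock protein 70, had 1721 CPM (1691 to 1751), and AT3G09440, annotated as a protein of the HSP70 family, had 1830 CPM (1799 to 1861). Over the profiles AT3G12580 ranged from 1712 to 1953 CPM with a median of 1734 CPM, and AT3G09440 ranged from 1830 to 2359 CPM with a median of 1873 CPM. AT3G09440 overlaps an oppositely oriented coding gene by 863 bases, and that gene had 1.21 CPM. AT3G12580 and AT3G09440 were both above HSC70-1 (AT5G02500), another constitutive copy, at 829 CPM. The count of AT3G12580 was 2.08 times (2.01 to 2.14) that of HSC70-1. The other stress-induced copy, Hsp70b (AT1G16030), had 334 CPM (range over profiles 278 to 410, median 336). The other constitutive copy, Hsp70-2 (AT5G02490), had 170 CPM. AT3G12580 and Hsp70b together took 42.1% (41.6 to 42.6) of the counts of the 5 genes, and between 32.9% and 47.9% of those added at single steps. All 5 were above 0 in every profile.

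In BiP, the HSP70 of the ER, the order of the classes was the other way round. BIP3 (AT1G09080), the copy known as induced by unfolded proteins in the ER, had 13.7 CPM (11.2 to 16.7), against 139 CPM for BIP2 (AT5G42020) and 135 CPM for BIP1 (AT5G28540), which are constitutive. BIP3 ranged from 13.3 to 34.7 CPM over the profiles, with a median of 16.2 CPM, and the highest value rested on 2 counts in the shallowest profile. The count of BIP3 was 0.0987 times (0.0798 to 0.121) that of BIP2, and BIP3 held 4.77% (3.91 to 5.76) of the BiP counts. BIP2 had 1033 counts and BIP1 had 1003 counts, and their transcripts shared a run of 323 bases, though in the last 300 bases they were 46.0% identical with no shared run over 8 bases. Over the 37 steps in which either gained counts, their split varied less than separate reads would make it, with a chi-square per degree of freedom of 0.183. Their split and their sum are therefore uncertain, and with them the share of BIP3, which would be larger if reads were counted for both copies. BIP2 and BIP3 shared no run over 17 bases. BIP2 itself ranged from 86.7 to 159 CPM over the profiles, with a median of 144 CPM.

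The small heat shock proteins, which form large oligomers and bind unfolding proteins without ATP, are all counted as stress-induced here. They spanned the whole range of the members. HSP17.6II (AT5G12020), a cytosolic class II protein, was highest at 2650 CPM (2613 to 2687) and ranked 22nd among all loci. Per kb of transcript it was the highest of all 38 members, 3008 CPM, ahead of HSP17.4 (AT3G46230), a class I protein, at 1996 CPM. The transcript of HSP17.6II has 881 bases against 2103 in HSP90.1, which was higher in CPM. Across the profiles HSP17.6II had a lowest value of 2644 CPM, a median of 2664 CPM and a highest of 3087 CPM.

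A middle group of 6 genes lay between 594 and 1445 CPM. HSP17.4 had 1445 CPM (profiles 1445 to 1700, median 1478). It overlaps an oppositely oriented coding gene by 60 bases, and that gene, AT3G46220, had 340 CPM. Of 4 loci annotated as HSP20-like chaperones, AT2G29500 had 1363 CPM (1363 to 1509, median 1404), AT1G07400 had 1321 CPM (1317 to 1717, median 1361), AT1G53540 had 1256 CPM (1162 to 1274, median 1244) and AT1G59860 had 594 CPM (593 to 763, median 616). HSP17.6A (AT5G12030), the class II neighbour of HSP17.6II, had 776 CPM (743 to 817, median 782). Among these the intervals of AT2G29500 (1337 to 1390) and AT1G07400 (1295 to 1347) overlapped, and the deepest profile held the lowest level of HSP17.4 and AT2G29500.

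At the other end, HSP18.2 (AT5G59720), a class I gene well known from heat-inducible reporters, had 8 counts, or 1.08 CPM (0.465 to 2.12), and was above 0 in 13 of the 39 profiles. Its first counts, 3 of them, appeared in QC cell 9 at a total of 3282952. The count of HSP17.4, another class I gene, was 1342 times (681 to 3110) that of HSP18.2. The transcripts of HSP17.4 and HSP18.2 were 55.2% identical with no shared run over 15 bases, and the upstream stretches printed for both hold a match of 3 units. What sets their levels apart was not tested. The other 7 cytosolic small heat shock proteins were above 0 in every profile.

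The 4 small heat shock proteins assigned to organelles or the ER were lower as a group, with a median of 74.7 CPM against 1288 CPM for the 8 assigned to the cytosol. AT5G51440, an HSP20-like locus placed with the mitochondrial members here, had 262 CPM (262 to 364 over the profiles, median 270). HSP23.6-MITO (AT4G25200), a mitochondrial protein, had 88.5 CPM (52.0 to 120, median 94.9). HSP22.0 (AT4G10250), of the ER, had 60.8 CPM (59.3 to 105, median 65.2). HSP21 (AT4G27670), the plastid protein, was lowest of the 4 at 7.54 CPM (5.69 to 9.79) and was above 0 in 29 profiles. The count of HSP21 was 0.124 times (0.0921 to 0.164) that of HSP22.0.

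HSP101 (AT1G74310), the disaggregase needed for acquired heat tolerance, had 372 CPM (358 to 386). Over the profiles it ranged from 367 to 457 CPM with a median of 375 CPM, and it was above 0 in all 39. It overlaps an oppositely oriented coding gene by 101 bases, and that gene had 91.5 CPM.

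**Figure D2:**
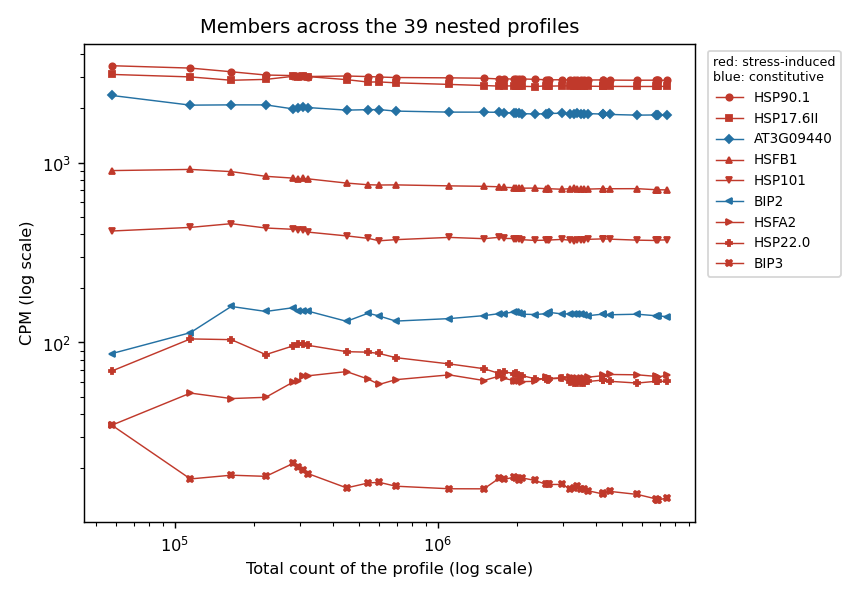
CPM of the leading member or members of each family and of BIP3, HSFA2 and HSP22.0 against the total count of the 39 nested profiles, both axes on a log scale. Levels vary most at the shallow end, where BIP3 stands at 34.7 CPM in QC cell 4, and HSP90.1 is the highest line in the deepest profile at 2865 CPM.

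Heat shock factors switch chaperone genes on or, for class B, mostly dampen them. HSFB1 (AT4G36990), a class B factor known as heat-induced, was the highest factor at 705 CPM (686 to 724). Over the profiles it ranged from 705 to 916 CPM with a median of 721 CPM, and the deepest profile was the lowest. HSFA7A (AT3G51910), an induced class A factor, followed at 101 CPM (95.9 to 149 over the profiles, median 104). HSFB2A (AT5G62020) had 84.4 CPM (75.5 to 121, median 88.3), and HSFA2 (AT2G26150), which prolongs the heat response, had 65.9 CPM (34.7 to 68.9, median 63.7). HSFB2B (AT4G11660) had 24.8 CPM (24.0 to 36.6, median 27.1). These 5 factors were above 0 in all 39 profiles. HSFA3 (AT5G03720), known to act in drought and late heat responses, had 6.32 CPM (4.65 to 8.41) and was above 0 in 28 profiles.

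The constitutive HSFA1 genes encode the master factors of the heat response. HSFA1B (AT5G16820) had 38.1 CPM and was above 0 in 38 profiles, HSFA1A (AT4G17750) had 14.1 CPM and was above 0 in 30, and HSFA1D (AT1G32330) had 13.2 CPM and was above 0 in 36. The intervals of HSFA1A (11.6 to 17.1 CPM) and HSFA1D (10.7 to 16.1 CPM) overlapped. The count of HSFB1 was 18.5 times (16.4 to 20.9) that of HSFA1B, and the count of HSFA2 was 1.73 times (1.49 to 2.01) that of HSFA1B. HSFA4A (AT4G18880), a class A factor linked to oxidative stress, had 23.1 CPM and was above 0 in 36 profiles. HSFA1B overlaps an oppositely oriented coding gene, AT5G16830, by 44 bases, and that gene had 103 CPM, more than HSFA1B itself. HSFB2B and HSFA3 also overlap such genes, which had 12.2 and 4.17 CPM, and the strand used in counting is not given in the sources used here.

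**Figure D3:**
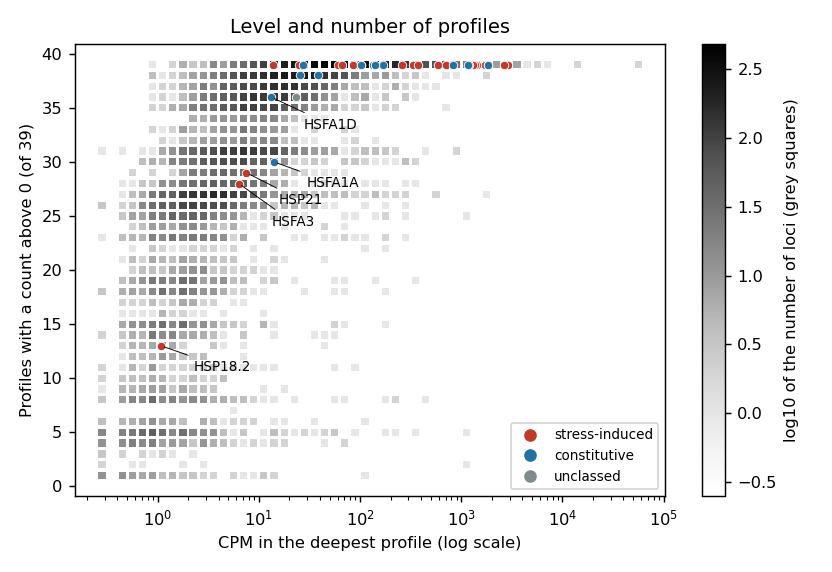
CPM in the deepest profile (log axis) against the number of the 39 profiles with a count above 0. Grey squares are all detected loci in bins, darker for more loci, and points are the members. HSP18.2 is above 0 in 13 profiles, HSFA3 in 28, HSP21 in 29 and HSFA1A in 30, and 30 members lie on the top row.

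The 2 classes were then compared as a whole, with no test because the profiles were 1 sample. The 23 stress-induced members had a median of 334 CPM and the 14 constitutive members one of 137 CPM, a ratio of medians of 2.44 and a difference of 1.28 in median log2(CPM + 1). Per kb of transcript the median was 130 CPM for stress-induced members and 50.4 CPM for constitutive members, a ratio of 2.58. Both constitutive medians lie midway between BIP1 and BIP2, whose split and sum are uncertain, so both ratios and the difference carry that doubt. The median transcript length was 1115 bases for stress-induced members and 2615 bases for constitutive members. The sums were 16117 CPM for the stress-induced members and 7524 CPM for the constitutive members, a ratio of 2.14. The classes overlapped over most of their range, 1.08 to 2865 CPM for the stress-induced members and 13.2 to 1855 CPM for the constitutive members. At 100 CPM or more stood 14 of 23 stress-induced and 9 of 14 constitutive members, and at 1000 CPM or more stood 7 stress-induced and 4 constitutive members. In every profile 20 of 23 stress-induced and 10 of 14 constitutive members were above 0, and the median member of either class was above 0 in 100% of profiles.

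The difference between the classes depended on which members were set side by side. Among the cytosolic chaperones alone, 12 stress-induced members had a median of 1288 CPM and 6 constitutive members one of 1173 CPM, a ratio of 1.10 and a difference of 0.13 in median log2(CPM + 1). This subset was chosen after the values were seen. Its constitutive median lies midway between HSP90.3 (1181 CPM) and HSP90.4 (1166 CPM), whose counts are uncertain, so the ratio carries that doubt. Among the heat shock factors, 6 stress-induced members had a median of 75.2 CPM and 3 constitutive members one of 14.1 CPM, a ratio of 5.32, though HSFA3 at 6.32 CPM and HSFB2B at 24.8 CPM lay below HSFA1B at 38.1 CPM. When ER, plastid and mitochondrial members were left out and the factors kept, the sign turned: 18 stress-induced members had a median of 649 CPM and 9 constitutive members one of 829 CPM, a ratio of 0.783 and a difference of -0.36 in median log2(CPM + 1). Over the cytosolic and nuclear members the stress-induced median was thus the lower one. Here the constitutive median is the level of HSC70-1, and HSP90.3 and HSP90.4 stand above it with uncertain counts. The sign carries that doubt.

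**Figure D4:**
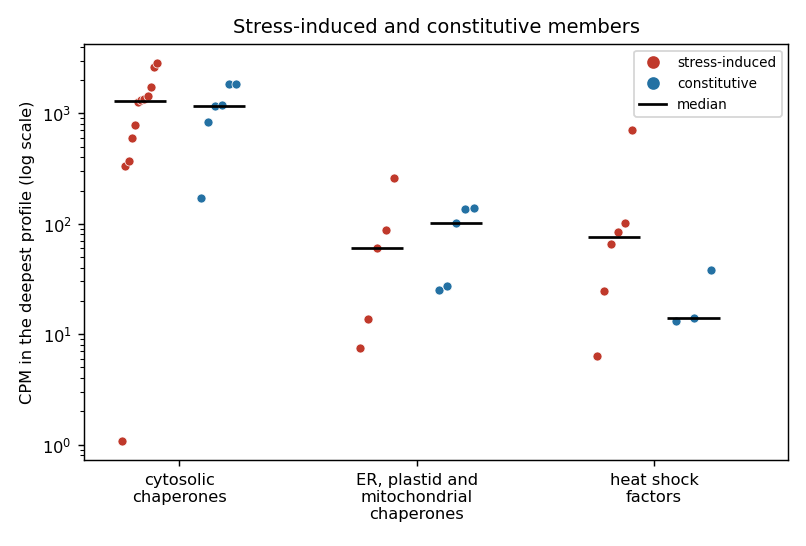
CPM in the deepest profile (log axis) of stress-induced (left of each pair) and constitutive members, split by where the protein acts; lines are medians. Among cytosolic chaperones the median is 1288 CPM for stress-induced and 1173 CPM for constitutive members, and among heat shock factors it is 75.2 CPM for stress-induced and 14.1 CPM for constitutive members. The median of 1173 CPM lies midway between HSP90.3 and HSP90.4, whose counts are uncertain.

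The share of counts taken by these genes was somewhat higher at the shallow end, 2.69% in QC cell 4 against 2.37% in QC cell 22. The counts added between successive profiles do not share reads with the shallower profile. Of those added counts the 38 members took between 2.12% and 2.66% over the 38 steps, with a median of 2.37%. The stress-induced members took between 1.53% and 1.81%, and the small heat shock proteins between 0.894% and 1.16%. The number of members above 0 was 30 in QC cell 4, 37 in QC cell 13, which had the median total of 2096738 counts, and 38 in QC cell 22. Of all 32678 loci, 4997 were above 0 in QC cell 4, 15062 in QC cell 13 and 16780 in QC cell 22, so detection rose with depth over all loci. The steps come from nested profiles and are not replicate cells, so their spread is no measure of variation between cells.

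The heat shock element was then set beside the levels. A match of 2 units stood before 14 of 23 stress-induced members (60.9%) and 6 of 14 constitutive members (42.9%), against 21.0% of the 27443 protein-coding genes searched. A match of 3 units stood before 9 of 23 stress-induced members (39.1%) and 3 of 14 constitutive members (21.4%), against 1.20% of all genes. Of the HSP70 genes 4 of 5 had a match of 3 units, the 3 constitutive ones among them, while none of the 3 BiP genes had a match of either kind. The 9 stress-induced members with 3 units were HSP90.1, AT3G12580, AT1G53540, HSP17.4, HSP22.0, HSP18.2, HSFB2A, HSFB2B and HSFA7A.

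Levels were spread widely within each kind of match. The 9 stress-induced members with 3 units had a median of 101 CPM and ran from 1.08 CPM in HSP18.2 to 2865 CPM in HSP90.1. The 5 with 2 units only had a median of 88.5 CPM, and the 9 with no match one of 594 CPM. HSP17.6II, at 2650 CPM, and HSFB1, at 705 CPM, were among those with no match. The order differed among constitutive members, where the 3 with 3 units had the highest median, 829 CPM. The 3 constitutive members with 2 units only had a median of 27.2 CPM, and the 8 with no match one of 137 CPM. A match is a description of these letters, and other forms of the element were not searched.

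**Figure D5:**
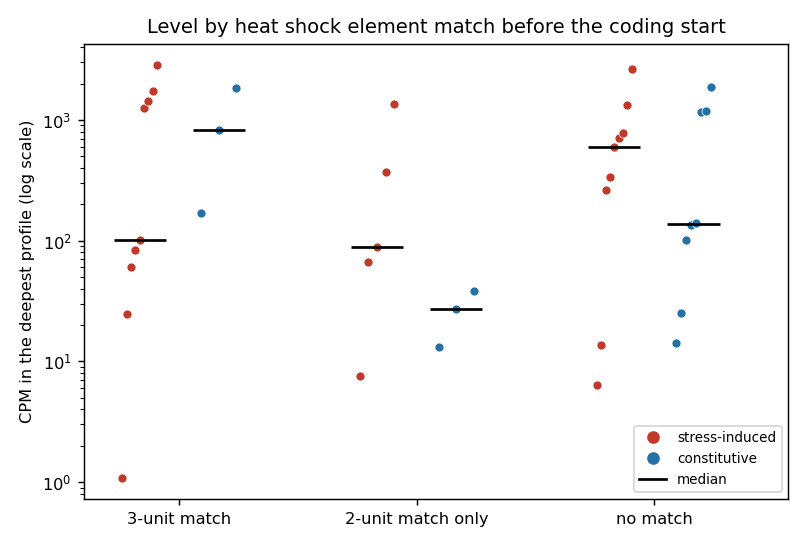
CPM in the deepest profile (log axis) of stress-induced (left of each pair) and constitutive members by the match found in the 500 bases before the coding start; lines are medians. Stress-induced members with a match of 3 units spread from 1.08 to 2865 CPM, and those with no match have a median of 594 CPM. Constitutive members have a median of 829 CPM with a match of 3 units and 137 CPM with no match.

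Genes that work with the members were read from a list of 35 cochaperones, other chaperones and heat regulators. All 35 were detected and 25 were above 0 in every profile, against 51.3% and 15.3% of all loci. Their median was 79.8 CPM, and 17 had 100 CPM or more, against 5.41% of all loci. The highest was MBF1C, a heat-induced transcriptional coactivator, at 1223 CPM. Next came Fes1A, which protects HSP70 from breakdown, at 497 CPM, and the HSP90-binding immunophilins ROF1 and ROF2 at 485 and 374 CPM. The HSP40 gene J3, whose product feeds clients to HSP70, had 317 CPM. The lowest were AT3G03773, an HSP20-like locus, at 1.75 CPM and SGT1A, an HSP90 cochaperone, at 9.82 CPM, and none was at 0.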

How the data were processed

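CEL-Seq was run by the authors on 40 sorted QC cells. The values deposited by the authors are on a log2 scale and were read as depth-normalized counts plus 1, with 39 columns matched to a sample. The submitters' notes name Bowtie2 and TAIR10, and for hand-picked cells the study's methods describe counts over exons by ngsutils, multi-mapped reads counted in part and a filter on thinly covered genes. Whether these steps were used for CEL-Seq, and the strand, is not given in the sources used here. Whole counts were recovered from the steps of the values, within 0.000844 of a step. The smallest count above 0 was 2, so a filter may have acted and a listed 0 sets no upper limit. No molecular identifiers are stated.

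Levels are CPM over the *Arabidopsis* loci, without spike-in rows, which held 4.97% of the deepest counts. Intervals are Poisson for levels and Clopper-Pearson for shares and count ratios (95%). Lengths and names came from RefSeq TAIR10.1, which had 31912 of the 32678 loci, and members without a RefSeq name keep their locus. The members, classes and lists were chosen with earlier results of these data known. All 38 members are named, profile ranges are given for the highest of each family and for stress-induced members of at least 10 CPM, and of the 35 partner genes the 5 highest, the 2 lowest above 0 and any at 0 are named. No test was made, since the profiles count as 1 sample. The alternatives were a count minimum of 10, thinning to 10000 counts, ribosomal RNA loci left out, a pseudocount of 0.1 CPM in place of 1, subsets of members, the shallowest profile and the counts added between profiles. CPM per kb and the cytosolic chaperones alone were chosen after seeing the data. Recovery of counts was tested on simulated data and returned 100% of 32771 values in each simulated profile. Python 3.11.15, numpy 2.4.6, pandas 2.3.3, scipy 1.17.1, Biopython 1.88 and matplotlib 3.10.9 were used.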

Additional observations from a re-analysis of the deposited data

How the results depend on the processing

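The profiles are nested and count as 1 sample, so no value here carries an error between cells or plants. No paired analysis was possible because there was 1 group. Depth limits HSP18.2, which rests on 8 counts, and copies with long shared runs cannot be split with certainty.

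The difference in median log2(CPM + 1), stress-induced minus constitutive, was 1.28. It became -0.36 without ER, plastid and mitochondrial members, 1.80 without heat shock factors, 0.13 among the cytosolic chaperones alone and 1.82 in the shallowest profile. Without ribosomal RNA loci, with a pseudocount of 0.1 CPM, over the added counts and per kb it stayed within 1.25 to 1.35. No alternative changed how reads shared between copies were counted. The values 1.28, -0.36 and 0.13 carry that doubt through BIP1 and BIP2 or through HSP90.3 and HSP90.4. The count of members above 0 in every profile was 30, and it was 19 at 10 or more counts and 16 after thinning to 10000 counts. The share of all loci was not computed for either alternative, so 19 and 16 give no comparison with other genes. After that thinning the median share of profiles detected was 97.4% for stress-induced members and 71.8% for constitutive members, against 100% for both before it. The summed level of 23664 CPM became 27480 CPM without ribosomal RNA loci and 26919 CPM in the shallowest profile. In the shallowest profile the share of HSP90.1 was 41.9%, that of AT3G12580 and Hsp70b 39.3%, and that of BIP3 18.18% (2 of 11 counts), each with an interval that holds the value of the deepest profile. With a minimum of 10 counts, 37 of 38 members were detected in the deepest profile, and the share of all loci at that minimum was not computed.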

Other observations

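Heat shock factor genes outside the 38 were also read. Of 8 such genes named in the annotation, 5 were detected, against 51.3% of all loci. HSFA9, known from seed maturation, had 134 CPM (126 to 142) and was above 0 in all 39 profiles, which placed it above each of the 10 member factors except HSFB1. HSFA6B had 42.4 CPM, HSFA1E 28.0 CPM, HSFA8 3.90 CPM and HSFC1 1.88 CPM, and HSFB4, HSFB3 and HSFA6A were listed at 0. Of 27 further loci annotated as HSP20-like or as class I or class II heat shock proteins, 20 were detected, against 51.3% of all loci. Of the 27, 3 had 100 CPM or more, against 5.41% of all loci, and the median of the 27 was 7.67 CPM. The partner genes AT4G02450 (186 CPM) and AT3G03773 (1.75 CPM) carry the HSP20-like annotation and are not among the 27. The highest of the 27 was 133 CPM for TTA1, followed by 122 CPM for AT1G54050 and 118 CPM for AT2G19310. TTA1 entered the list only through its annotation as a putative class I heat shock protein (DUF1423). Whether it is a small heat shock protein was not checked.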
